A study of Solanum lycopersicum with 2 samples.

Results

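The early flavonoid and flavonol genes are the 8 tomato loci that lead from chalcone formation to flavonols, together with MYB12, a regulator of that pathway. They were chosen by identifier from the 34725 gene models of the deposited table, and all 8 had a row and a mean level high enough to be compared. Flavonoid synthesis starts when chalcone synthase (CHS) joins a phenylpropanoid starter to malonyl units. Chalcone isomerase (CHI) closes the ring to a flavanone, flavanone 3-hydroxylase (F3H) makes a dihydroflavonol, and flavonol synthase (FLS) turns it into a flavonol such as kaempferol or quercetin. Flavonoid 3'-hydroxylase (F3'H) adds the hydroxyl group that separates the quercetin type from the kaempferol type. MYB12 is an R2R3-MYB transcription factor known to activate CHS, CHI, F3H and FLS in Arabidopsis and tomato. In tomato, flavonols accumulate in the epidermis, the fruit peel and the leaf hairs called trichomes.

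RNA was sequenced from young primary leaf of mature plants of the cultivar Ailsa Craig. One library was made from SlCycB2-OE plants, which overexpress the B-type cyclin gene SlCycB2, and 1 from SlCycB2 RNAi plants, in which the gene is targeted for silencing. The series asks what this cyclin does in multicellular trichomes, defence against herbivores and reproductive organs. The promoter of the overexpression construct, the number of lines and whether plants were pooled are not stated in the labels. No wild-type library entered the comparison, so a difference between the libraries cannot be assigned to overexpression or to silencing.

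With 1 library per group, no difference below could be set against a spread between plants, and no test was made. Every value describes these 2 libraries only. Levels are in RPKM, which scales reads to the length of the gene model and the size of the library, so they can be set side by side. That scaling does not remove an offset shared by most genes of a library, so some ratios are also given centred on the median of all genes. Differences are log2 ratios of SlCycB2-OE over SlCycB2 RNAi with 1 RPKM added to each side, so low genes show smaller ratios than their levels have. The limit for counting a gene was 2-fold on that scale. Over the 19466 genes with a mean of at least 1 RPKM the median log2 ratio was 0.13, so most genes lay slightly above 0. The deposited table carries no gene names. The targeted gene could therefore not be looked up by name. Solyc10g083140.1.1, listed here as the targeted gene, had the largest ratio of all. It was at 4816 RPKM in the SlCycB2-OE library and 12.3 RPKM in the SlCycB2 RNAi library. Whether it is SlCycB2 was not settled, since the RefSeq table used for names places the symbol CycB2 on chromosome 2. That table pairs none of the identifiers with a symbol. For 5 of the 6 members outside the CHI-like pair the symbol exists there, and in all 5 it lies on the chromosome that the identifier gives. FLS has no entry under that symbol. The symbols CHI1 and CHI2 both lie on chromosome 5, as do both CHI-like identifiers, but neither identifier could be paired with either symbol.

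Across the pathway, 7 of the 8 genes were lower in the SlCycB2-OE library than in the SlCycB2 RNAi library, while 32.0% of all genes compared had a negative ratio. F3'H and CHS1 were at least 2-fold lower, and no member was at least 2-fold higher. Among all genes compared, 1.92% were at least 2-fold lower and 2.6% were 2-fold higher or more. With 5 RPKM added in place of 1, 0 of the 8 genes reached 2-fold, beside 0.658% of all genes at least 2-fold lower. After centring on the median of all genes 3 of the 8 were at least 2-fold lower, beside 2.48% of all genes. The median log2 ratio of the 8 genes was -0.77, against 0.13 for all genes compared, and -0.90 after that centring. Summed over the 8 genes, the level was 72.3 RPKM in the SlCycB2-OE library and 114.8 RPKM in the SlCycB2 RNAi library, or 63.0% of the RNAi sum. F3H was the exception, slightly higher in the SlCycB2-OE library. Within the range of mean levels that the members span, 1.19 to 21.0 RPKM, 2.18% of 13833 genes were at least 2-fold lower and 2.9% at least 2-fold higher, a background added after the data were seen.

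**Figure D1:**
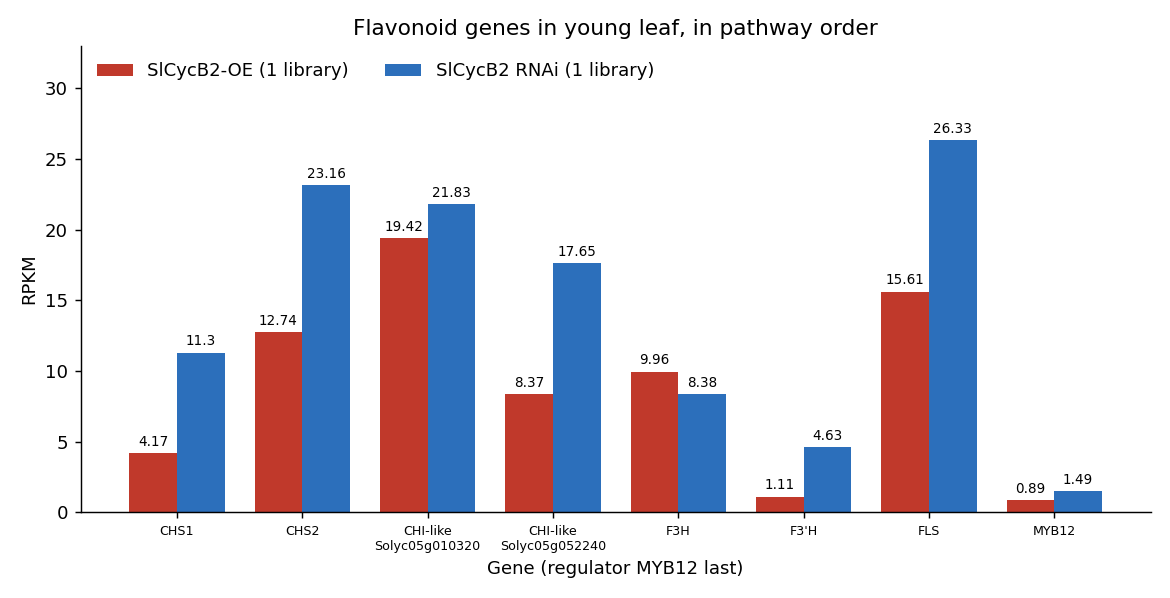
RPKM (vertical axis) of the 8 genes in pathway order (horizontal axis), with the SlCycB2-OE library in red to the left of the SlCycB2 RNAi library in blue; each bar is 1 library, so there are no error bars. The red bar is the shorter of the pair for every gene except F3H, at 9.96 RPKM in SlCycB2-OE and 8.38 RPKM in SlCycB2 RNAi.

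Chalcone synthase, the entry enzyme, was represented by CHS1 and CHS2. CHS1 (Solyc09g091510.2.1, chromosome 9) was at 4.17 RPKM in the SlCycB2-OE library and 11.3 RPKM in the SlCycB2 RNAi library, a log2 ratio of -1.25. Of the genes compared, 1.33% had a ratio as low or lower. CHS2 (Solyc05g053550.2.1, chromosome 5) was at 12.7 RPKM in the SlCycB2-OE library and 23.2 RPKM in the SlCycB2 RNAi library, a log2 ratio of -0.81, which did not reach 2-fold. Both copies were thus lower in the SlCycB2-OE library, CHS1 by the larger factor. Their summed level was 16.9 RPKM in the SlCycB2-OE library and 34.5 RPKM in the SlCycB2 RNAi library. CHS2 was the more abundant copy in both libraries and made up 75.3% of that sum in SlCycB2-OE and 67.2% in SlCycB2 RNAi. The 2 genes encode the same enzyme activity, and how reads that fit both copies were counted is not stated, so the split between them is uncertain.

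The CHI-like loci differed from each other. Members of this protein family are either catalytic isomerases or non-catalytic partners, which in other plants are known to bind CHS, and no file says which of these the loci encode. Solyc05g052240.2.1 was at 8.37 RPKM in the SlCycB2-OE library and 17.65 RPKM in the SlCycB2 RNAi library. Its log2 ratio of -0.99 lay just inside the 2-fold limit and was past it, at -1.13, once centred on the median of all genes, and without the added 1 RPKM its level in SlCycB2-OE was 47.4% of that in SlCycB2 RNAi. Solyc05g010320.2.1 was at 19.4 RPKM in the SlCycB2-OE library and 21.8 RPKM in the SlCycB2 RNAi library, a log2 ratio of -0.16. The level of Solyc05g010320 was 2.32 times that of Solyc05g052240 in the SlCycB2-OE library and 1.24 times in the SlCycB2 RNAi library. The CHI-like genes therefore differed in the balance between them as well as in level.

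The middle of the pathway held the gene that stood against the direction of the others. F3H (Solyc02g083860.2.1, chromosome 2), which supplies dihydroflavonols to both the flavonol and the anthocyanin branch, was at 9.96 RPKM in the SlCycB2-OE library and 8.38 RPKM in the SlCycB2 RNAi library. Its log2 ratio of 0.22 was close to the median of all genes, and 38.0% of genes compared had a ratio as high or higher. Centred on that median it was 0.09. Relative to F3H, the summed CHS level was 1.70 times as high in the SlCycB2-OE library and 4.11 times as high in the SlCycB2 RNAi library.

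F3'H (Solyc03g115220.2.1, chromosome 3), the B-ring hydroxylase of the quercetin type, had the lowest ratio of the 8 genes. It was at 1.11 RPKM in the SlCycB2-OE library and 4.63 RPKM in the SlCycB2 RNAi library, a log2 ratio of -1.42. Without the added 1 RPKM, the level in SlCycB2-OE was 24.0% of that in SlCycB2 RNAi. Of the genes compared, 1.06% had a ratio as low or lower. F3'H was also the least abundant of the enzymes in both libraries, and its ratio depended on the added constant more than that of the others: it was -1.97 with 0.1 RPKM added and -0.66 with 5. The level of F3'H relative to F3H was 0.11 in the SlCycB2-OE library and 0.55 in the SlCycB2 RNAi library.

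FLS (Solyc11g013110.1.1, chromosome 11), the enzyme that commits dihydroflavonols to flavonols, was at 15.6 RPKM in the SlCycB2-OE library and 26.3 RPKM in the SlCycB2 RNAi library. Its log2 ratio of -0.72 was within 2-fold, and 3.31% of genes compared had a ratio as low or lower. FLS was next to the CHI-like Solyc05g010320 at the top of the 8 genes in the SlCycB2-OE library and was the most abundant of them in the SlCycB2 RNAi library. The level of FLS was 1.57 times that of F3H in the SlCycB2-OE library and 3.14 times in the SlCycB2 RNAi library. Next to Solyc02g085020, listed as dihydroflavonol reductase (DFR), the enzyme that competes with FLS for dihydroflavonols, FLS was 2.31 times as high in the SlCycB2-OE library and 3.96 times as high in the SlCycB2 RNAi library. The ratio of flavonol to anthocyanin branch enzyme at this point was thus the lower one in the SlCycB2-OE library.

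MYB12 (Solyc01g079620.2.1, chromosome 1) was the least abundant of the 8 genes in both libraries. It was at 0.89 RPKM in the SlCycB2-OE library and 1.49 RPKM in the SlCycB2 RNAi library, a log2 ratio of -0.40. Without the added 1 RPKM, its level in SlCycB2-OE was 59.7% of that in SlCycB2 RNAi, although the read numbers behind so low a value are unknown. On that scale FLS was at 59.3%, close to MYB12. CHS1 was at 36.9%, Solyc05g052240 at 47.4%, CHS2 at 55.0%, Solyc05g010320 at 89.0% and F3H at 118.9%. Whether MYB12 has a part in these levels was not tested. With 0.1 RPKM added the log2 ratio of MYB12 was -0.68 and with 5 it was -0.14.

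Ordered by level, the SlCycB2-OE library ran from the CHI-like Solyc05g010320 through FLS, CHS2, F3H, Solyc05g052240, CHS1 and F3'H to MYB12. In the SlCycB2 RNAi library the order was FLS, CHS2, Solyc05g010320, Solyc05g052240, CHS1, F3H, F3'H and MYB12. F3H ranked at place 4 in the SlCycB2-OE library and at place 6 in the SlCycB2 RNAi library, above CHS1 in SlCycB2-OE and below both chalcone synthases in SlCycB2 RNAi. The highest of the 7 enzyme genes was 17.5 times the lowest in the SlCycB2-OE library and 5.69 times in the SlCycB2 RNAi library. Among all genes listed above 0 in the same library, FLS stood at percentile 70.6 in SlCycB2-OE and 83.2 in SlCycB2 RNAi. CHS1 stood at percentile 38.2 in SlCycB2-OE and 65.3 in SlCycB2 RNAi. The neighbours in these orders could not be separated statistically, as there is no replicate spread.

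**Figure D2:**
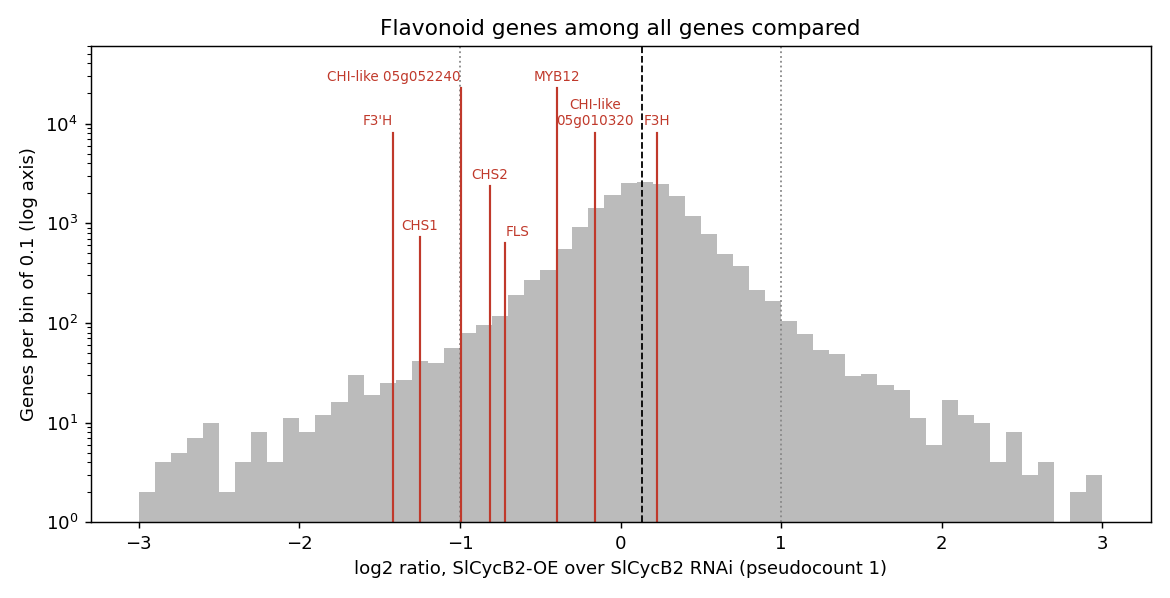
Number of genes per bin of 0.1 (vertical log axis) by log2 ratio of SlCycB2-OE over SlCycB2 RNAi (horizontal axis) for genes with a mean of at least 1 RPKM, with ratios beyond 3 either way not drawn; the dashed line is the median of 0.13, dotted lines mark 2-fold, and red lines of arbitrary height mark the 8 genes. F3'H at -1.42 and CHS1 at -1.25 lie past the lower 2-fold line, and F3H at 0.22 is the only member above 0.

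Set among all genes compared, 5 of the 8 ratios were among the lowest 4% and 6 among the lowest 10%. The 5 were F3'H, CHS1, the CHI-like Solyc05g052240, CHS2 and FLS, and MYB12 was the sixth. These percentages describe the libraries and were not tested, and the 8 genes are members of 1 pathway in the same 2 libraries, so they are not replicates of each other.

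By their identifiers the 8 genes lie on 6 chromosomes, with CHS2 and both CHI-like loci on chromosome 5 and the others on chromosomes 1, 2, 3, 9 and 11. The 10 nearest compared identifiers of each gene, 5 on either side, were used to describe its surroundings. Over these 80 neighbours the median log2 ratio was 0.12, and 1 was at least 2-fold lower and 1 at least 2-fold higher. For CHS1, Solyc05g052240, F3'H, FLS and MYB12 the gene itself had a lower ratio than all 10 of its neighbours. These 5 were already among the lowest 10% of all ratios, so this mostly restates their low ratios. The share of all genes compared that lie below all their neighbours was not computed. The neighbours of CHS1 ranged from -0.90 to 0.40 and those of FLS from -0.31 to 0.24. F3H was in the middle of its neighbours, which had a median of 0.23.

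**Figure D3:**
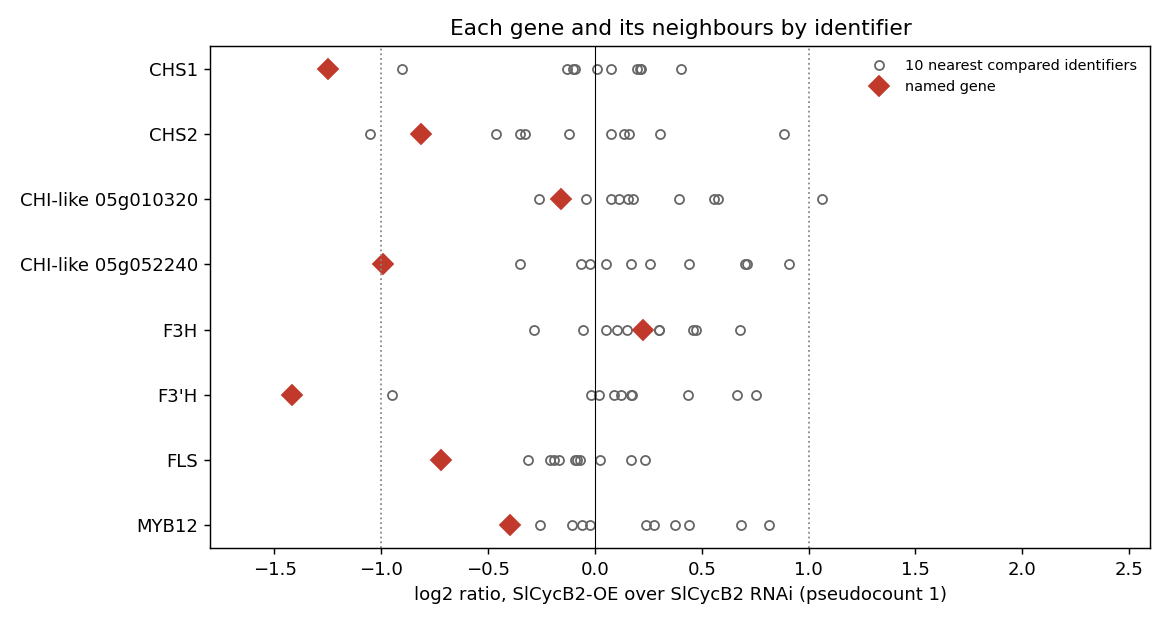
Log2 ratio of SlCycB2-OE over SlCycB2 RNAi (horizontal axis) for each gene (red diamond) and its 10 nearest compared identifiers on the same chromosome (open circles), 1 gene per row; dotted lines mark 2-fold. The diamonds of CHS1, CHI-like Solyc05g052240, F3'H, FLS and MYB12 lie left of all their circles. The share of all genes for which this holds was not computed.

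The genes before and after this stretch of the pathway were described from loci listed from general knowledge of tomato genetics, whose identity the files do not give. Phenylalanine ammonia-lyase and 4-coumarate CoA ligase belong to the general phenylpropanoid route that supplies CHS, and also lignin and hydroxycinnamate synthesis. Of 11 loci listed for that route 9 were compared, with 0 past 2-fold in either direction and a median log2 ratio of 0.38. The 4 adjacent loci from Solyc09g007890 to Solyc09g007920, listed as phenylalanine ammonia-lyases, were all higher in the SlCycB2-OE library within 2-fold. Of all genes compared, 32.0% had a negative ratio. How reads that fit several of the 4 loci were counted is not stated, so their ratios may not be separate measurements. The most abundant, Solyc09g007900, was at 114.6 RPKM in the SlCycB2-OE library and 67.1 RPKM in the SlCycB2 RNAi library, a log2 ratio of 0.76. Summed levels of the 11 entry loci were 364.2 RPKM in the SlCycB2-OE library and 239.7 RPKM in the SlCycB2 RNAi library. The 4 adjacent loci made most of that difference, at 285.6 RPKM in SlCycB2-OE and 166.7 RPKM in SlCycB2 RNAi, while the other 7 summed to 78.6 RPKM in SlCycB2-OE and 72.95 RPKM in SlCycB2 RNAi. Of those 7, 3 were lower in the SlCycB2-OE library, beside 8539 of all 34725 genes. They were Solyc05g056170, Solyc06g068650 and Solyc12g042460, with log2 ratios of -0.24, -0.36 and -0.51. Solyc12g042460, with a mean of 0.905 RPKM, was not among the 9 compared, and neither was Solyc05g047530, with 0.495 RPKM.

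In the anthocyanin branch, which makes coloured glycosides from the same dihydroflavonols, 7 loci were compared, with 0 at least 2-fold higher, 1 at least 2-fold lower and a median log2 ratio of 0.02. The lower one was Solyc11g066580, listed as F3'5'H, the hydroxylase of the delphinidin and myricetin type. It was at 3.18 RPKM in the SlCycB2-OE library and 7.38 RPKM in the SlCycB2 RNAi library, just past 2-fold, and its level in SlCycB2-OE was 43.1% of that in SlCycB2 RNAi. With both libraries set to the same RPKM sum it no longer reached 2-fold, and 0 loci of the branch were counted. Both B-ring hydroxylases, F3'H and F3'5'H, were thus lower in the SlCycB2-OE library. DFR was at 6.77 RPKM in the SlCycB2-OE library and 6.65 RPKM in the SlCycB2 RNAi library. Solyc08g080040, listed as anthocyanidin synthase, was at 6.85 RPKM in the SlCycB2-OE library and 6.73 RPKM in the SlCycB2 RNAi library. Both enzymes were nearly level between the libraries. Solyc09g059170, listed as a rhamnosyltransferase, was at 7.25 RPKM in the SlCycB2-OE library and 14.5 RPKM in the SlCycB2 RNAi library, a log2 ratio of -0.91. In the other direction, Solyc10g083440, listed as a flavonoid glucosyltransferase, was at 7.66 RPKM in the SlCycB2-OE library and 4.48 RPKM in the SlCycB2 RNAi library, a log2 ratio of 0.66. Solyc12g098590, listed as another glucosyltransferase, had a log2 ratio of 0.23, so the loci of this branch lay on both sides of 0.

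Of 8 loci listed as other flavonoid regulators, 4 reached a mean of 1 RPKM, with 0 at least 2-fold higher or lower and a median log2 ratio of 0.23. Solyc08g081140, listed as the bHLH factor JAF13, had the largest ratio of these 4, at 12.2 RPKM in the SlCycB2-OE library and 7.20 RPKM in the SlCycB2 RNAi library, a log2 ratio of 0.69. Solyc08g061130, listed as the light-signalling factor HY5, was at 5.54 RPKM in the SlCycB2-OE library and 4.50 RPKM in the SlCycB2 RNAi library. Among listed regulators with a mean of at least 1 RPKM, only MYB12 had a ratio below 0 as deposited. Its level in SlCycB2-OE, 0.89 RPKM, was itself below 1 RPKM. Solyc10g086250, listed as AN2, with 0.13, came to -0.00056 once centred on the median of all genes. Solyc09g065100, listed as AN1 and left out by that filter, was at 0.66 RPKM in SlCycB2-OE and 0.80 RPKM in SlCycB2 RNAi, a log2 ratio of -0.12. With no filter, 1 of the 8 other regulators was lower in SlCycB2-OE and 6 were higher. Of all 34725 genes, 8539 were lower and 16190 higher. The 6 include Solyc10g086260, at 0.13 RPKM in SlCycB2-OE and 0.12 RPKM in SlCycB2 RNAi. They also include Solyc07g052490, at 0.54 RPKM in SlCycB2-OE and 0 in SlCycB2 RNAi.

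**Figure D4:**
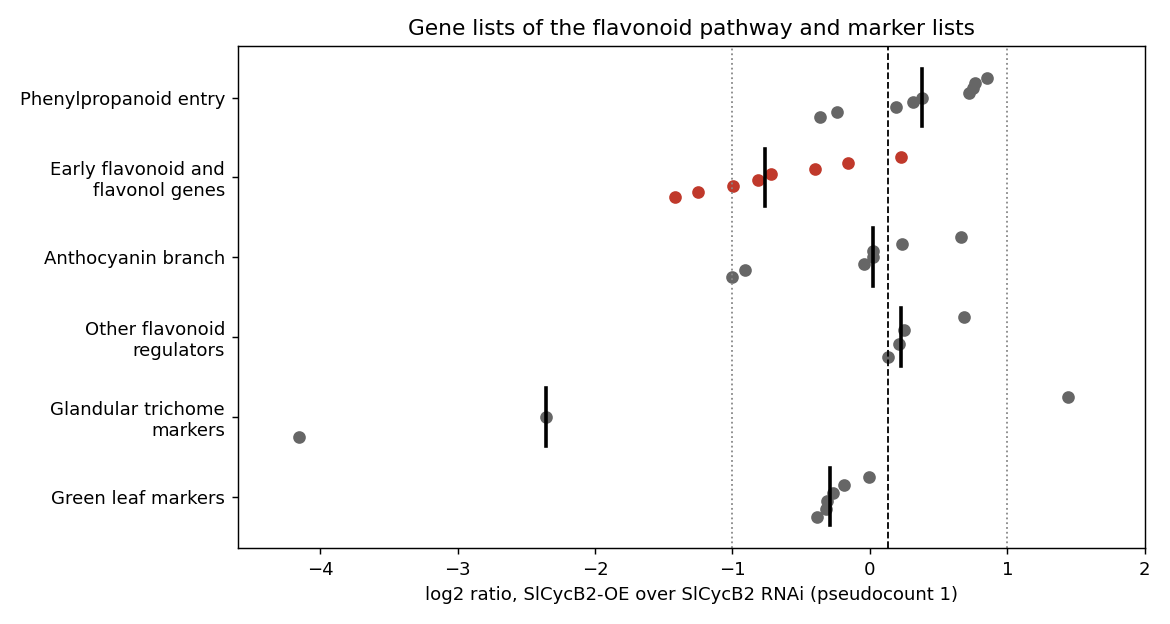
Log2 ratio of SlCycB2-OE over SlCycB2 RNAi (horizontal axis) for each locus with a mean of at least 1 RPKM (points) in 6 gene lists (rows), with black bars at the list medians, a dashed line at the median of all genes and dotted lines at 2-fold. The early flavonoid and flavonol genes (red) have a median of -0.77. It is lower than the 0.38 of the phenylpropanoid entry in the row above and the 0.02 of the anthocyanin branch in the row below.

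Leaf tissue holds several cell types, and glandular trichomes are one where tomato also makes flavonoids, so their markers are given here. Of 7 loci listed as trichome terpene synthases or acylsugar acyltransferases, 6 were in the table and 5 of these were lower in the SlCycB2-OE library. Over all 34725 genes, with no filter, 8539 were lower and 16190 higher. Among the 3 that were compared, 2 were at least 2-fold lower and 1 at least 2-fold higher. Of all genes compared, 1.92% were at least 2-fold lower and 2.6% at least 2-fold higher. Both lower loci reached a mean of 1 RPKM only through their SlCycB2 RNAi level, a filter that favours large ratios in that direction. The higher one, Solyc01g105890, listed as a terpene synthase, was at 7.54 RPKM in the SlCycB2-OE library and 2.14 RPKM in the SlCycB2 RNAi library, a log2 ratio of 1.44. Of the lower ones, Solyc06g059930, also listed as a terpene synthase, was at 0.16 RPKM in SlCycB2-OE and 19.65 RPKM in SlCycB2 RNAi, and Solyc11g067270, listed as an acyltransferase, was at 0.32 RPKM in SlCycB2-OE and 5.77 RPKM in SlCycB2 RNAi. The 6 loci summed to 8.02 RPKM in the SlCycB2-OE library and 30.3 RPKM in the SlCycB2 RNAi library, sums made mostly by Solyc01g105890 in SlCycB2-OE and by Solyc06g059930 in SlCycB2 RNAi. The remaining loci Solyc12g006330, Solyc04g012020 and Solyc01g105580 were listed at 0 in SlCycB2-OE and at 0.62 to 1.52 RPKM in SlCycB2 RNAi. The part of these markers in the result for the flavonoid genes was not tested. In a whole-leaf sample, fewer cells of a type and less RNA per cell cannot be told apart. The 6 listed green leaf markers, Rubisco subunits, Rubisco activase and chlorophyll binding proteins, were abundant in both libraries, at 2681 to 20710 RPKM in SlCycB2-OE and 3498 to 25689 RPKM in SlCycB2 RNAi, as the leaf label states. All 6 were lower in the SlCycB2-OE library, beside 32.0% of all genes compared. Their median log2 ratio was -0.29, with all 6 within 2-fold.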

How the data were processed

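The authors deposited 1 RPKM value per library for each gene model, rounded to 2 decimals or fewer, per the file headers. The submitters' processing notes name TopHat, which aligns spliced reads. Genome build, annotation, counting program, use of strand and handling of multi-mapping reads: not given in the sources used here. Read totals are not given, so counting errors are unknown. The worth of 1 read in SlCycB2-OE over SlCycB2 RNAi was estimated from 2589 low genes in a scan of 0.5 to 2. The best fit was 1.02. There 28.0% of ratios lay within 0.01 (natural log) of fractions of whole numbers up to 3, against a median of 3.75%. Other peaks reached 22.8% at 1.53, 21.8% at 0.51 and 21.8% at 0.68, so 1.02 was the highest of several.

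Ratios were computed as log2((RPKM + 1) / (RPKM + 1)) for genes with a mean of at least 1 RPKM, in Python 3.11.15 with pandas 2.3.3 and numpy 2.4.6, and drawn with matplotlib 3.10.9. The code for the ratios was checked on simulated libraries, which says nothing of the spread between plants. Named genes are the 8 members and the listed loci. Members, lists and alternatives were chosen with earlier results of these data known, and the neighbour description was added after the data were seen. Names came from the gene list and from RefSeq symbols (assembly SLM_r2.1, 41476 genes, 0 identifiers matched). The 8 alternatives were other pseudocounts, scalings, filters and a 4-fold limit.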

Additional observations from a re-analysis of the deposited data

How the results depend on the processing

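Of 54 values for the 8 genes under the other pseudocounts, scalings and filters, 0 changed sign, which a pseudocount cannot do and which the scalings, with shifts of at most about 0.15 (log2), could hardly do. The count of early flavonoid genes at least 2-fold lower, 2 as reported, was 0 with a pseudocount of 5, 1 with a minimum mean of 5 RPKM, where F3'H was not compared, and 0 at the 4-fold limit. It was 3 with a pseudocount of 0.1, after centring on the median and after a trimmed mean of ratios, as Solyc05g052240 reached -1.07, -1.13 and -1.13, while 2.94%, 2.48% and 2.27% of all genes were that low. The anthocyanin branch had 0 loci at least 2-fold lower with a pseudocount of 5, at the 4-fold limit and with both libraries set to the same RPKM sum, and 2 after centring or the trimmed mean. For the trichome markers the median log2 ratio was -3.80 with a pseudocount of 0.1, -1.02 with 5, -1.02 without a filter and -4.15 with a minimum mean of 5 RPKM, where 1 lower and 0 higher were left; 0 were higher with a pseudocount of 5 or at the 4-fold limit. No replicate could be left out. No paired analysis was possible because each group has 1 library.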
